A study of Mus musculus with 4 samples.

Results

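Barcodes with RNA of mast cell and basophil granule proteases were examined in single-cell RNA-seq of mouse ascites. They were chosen by measured values: a barcode had to hold 300 to 4800 genes, at most 15% mitochondrial UMIs (unique molecular identifiers, each standing for 1 captured RNA molecule), at least 3 UMIs in all of Cpa3, Cma1, Mcpt1, Mcpt4, Mcpt8 and Cd200r3, and 0 UMIs of C1qa, C1qb, Cd79a and Cd3e, which mark macrophages, B cells and T cells. A barcode was put in the basophil class where Mcpt8 plus Cd200r3 exceeded Cpa3 plus Cma1 plus Mcpt4, and otherwise in the mast cell class. The rule took 8858 of 133849 deposited barcodes, out of 119858 that met the limits on genes and mitochondrial UMIs (retained barcodes), and put 8850 in the mast cell class and 8 in the basophil class. The study kept far fewer cells after its own filters. Shares of retained barcodes are therefore not shares of the cells of the study.

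The ascites came from female FVB mice that had received Br-Luc ovarian tumor cells (p53-/-, brca1-/-, myc, Akt-myr) into the peritoneal cavity and was collected 6 weeks after injection. The mice were treated with a scrambled control siRNA (siCont) or with an siRNA against Fxr1 (siFXR1-LNA). By the study's methods both were modified with locked nucleic acids (LNA) and given in jetPEI, a polymer carrier. Each group had 2 libraries, each from pooled ascites of several mice, so the spread between libraries is not a spread between single animals. The tumor is 1 engineered cell line, and all groups carried it.

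Mast cells and basophils are granulocytes that bind IgE through the receptor FcεRI and release histamine, proteases and lipid mediators when it is crosslinked. Mast cells mature in tissues, the peritoneal cavity of the mouse among them, and depend on the receptor KIT. Their granules pack chymases, tryptases and carboxypeptidase A3 on the proteoglycan serglycin. Basophils circulate, are short-lived, and in the mouse carry the protease Mcpt8.

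The rule genes lie in a few places of the mouse genome (GRCm38, GENCODE vM21). Cma1, the peritoneal chymase, lies at chr14:55941451-55944675 on the minus strand. Mcpt1, a chymase of mucosal mast cells, at chr14:56017971-56020384 (plus strand), Mcpt4, a chymase of connective tissue mast cells, at chr14:56059629-56062313 (minus strand), and Mcpt8 at chr14:56082166-56085273 (minus strand) share the locus with it. Cpa3, carboxypeptidase A3, lies at chr3:20215620-20242181 (minus strand) and Cd200r3, a receptor of mast cells and basophils, at chr16:44943678-44981380 (plus strand). The start regions of the 3 genes that made up nearly all rule UMIs, and that of Mcpt1, are shown because Mcpt4 was abundant and Mcpt1 nearly undetected while their start regions were the most alike of all pairs. The sequences are RefSeq windows of GRCm38.p6 from 250 bases before to 50 after the start of the gene, read 5′ to 3′ on the strand of the gene. Capitals mark GATAA or its reverse complement TTATC, the core bound by GATA factors.
Cpa3: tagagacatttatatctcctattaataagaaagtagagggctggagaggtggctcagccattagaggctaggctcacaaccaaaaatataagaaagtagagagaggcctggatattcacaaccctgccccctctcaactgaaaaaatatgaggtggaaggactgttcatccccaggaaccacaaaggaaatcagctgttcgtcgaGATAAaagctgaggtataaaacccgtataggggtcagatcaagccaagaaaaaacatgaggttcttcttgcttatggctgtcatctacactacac
Cma1: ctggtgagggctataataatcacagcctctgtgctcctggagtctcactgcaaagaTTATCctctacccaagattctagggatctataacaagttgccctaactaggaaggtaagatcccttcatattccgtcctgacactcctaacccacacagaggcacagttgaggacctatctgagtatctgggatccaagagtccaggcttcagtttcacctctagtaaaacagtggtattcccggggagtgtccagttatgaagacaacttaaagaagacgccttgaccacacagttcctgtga
Mcpt4: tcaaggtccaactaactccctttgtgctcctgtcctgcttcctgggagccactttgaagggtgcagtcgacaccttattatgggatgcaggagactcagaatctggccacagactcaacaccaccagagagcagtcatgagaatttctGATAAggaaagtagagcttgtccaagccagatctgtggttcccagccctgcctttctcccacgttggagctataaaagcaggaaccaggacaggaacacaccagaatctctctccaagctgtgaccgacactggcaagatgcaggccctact
Mcpt1: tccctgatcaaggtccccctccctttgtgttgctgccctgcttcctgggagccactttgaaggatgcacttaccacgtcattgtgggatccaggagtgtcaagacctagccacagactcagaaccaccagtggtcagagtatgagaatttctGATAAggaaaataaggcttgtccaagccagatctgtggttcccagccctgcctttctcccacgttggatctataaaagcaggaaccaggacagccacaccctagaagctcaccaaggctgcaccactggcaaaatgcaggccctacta
The windows are chr3:20242132-20242431 for Cpa3, chr14:55944626-55944925 for Cma1, chr14:56062261-56062560 for Mcpt4 and chr14:56017714-56018013 for Mcpt1. In a global alignment Mcpt1 and Mcpt4 shared 248 of 305 columns (81.3%), whereas Cpa3 and Cma1 shared 169 of 325 (52.0%). Each of the 4 windows held 1 match to the motif. Cd200r3 held 2 and Mcpt8 none, and 25.4% of 32851 mouse start regions of this length held at least 1.

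The label did not hold for most of the selected barcodes. In siCont replicate 1 the rule took 7233 barcodes into the mast cell class, in siCont replicate 2 it took 1520, and in the libraries labelled siFXR1-LNA it took 49 and 48. Hemoglobin genes, which mark red cells, made up a median of 57.0% and 61.2% of the UMIs of a class member in siCont, against 4.68% and 0.753% in siFXR1-LNA. At least 50% of the UMIs were hemoglobin in 4927 (68.1%) and 831 (54.7%) of the siCont barcodes, in none of the 49 and in 6 of the 48. The gene with the highest mean level in the class was Hbb-bs, a beta globin, and Hbb-bt, Hba-a1 and Hba-a2 were also among the 15 highest genes, whereas no mast cell gene was. The selected barcodes are therefore named here by the rule and not as a cell type.

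**Figure D1:**
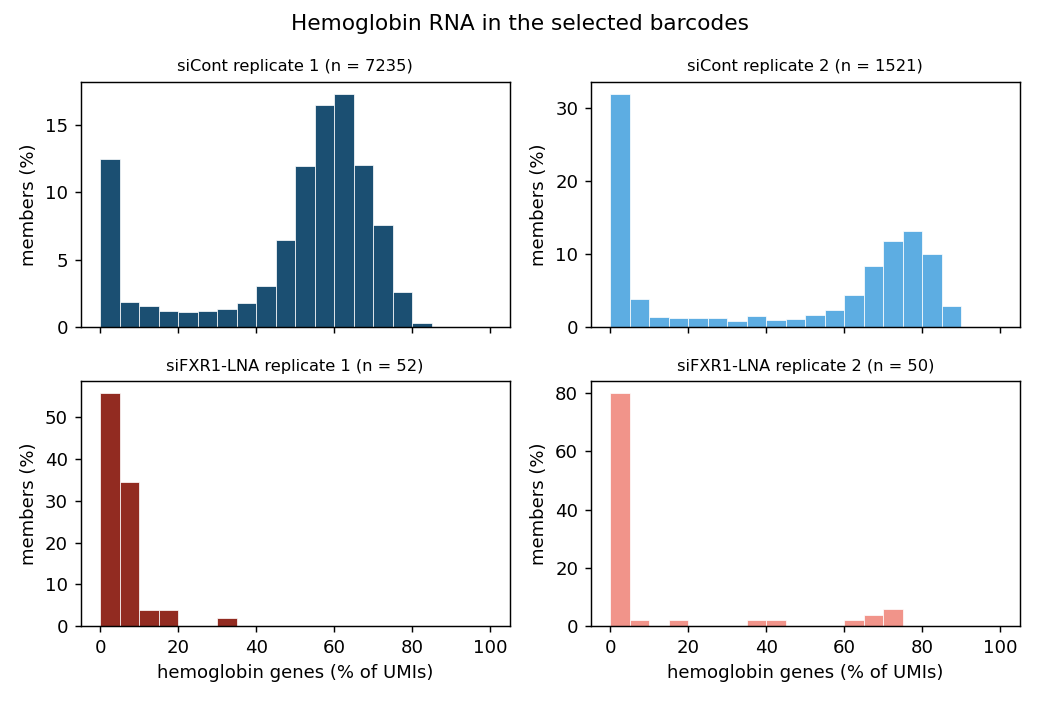
Share of the selected barcodes (y, percent of the members in a library) by the percent of their UMIs from hemoglobin genes (x, bins of 5 percentage points), 1 panel per library. In both siCont libraries most members lie above 50% hemoglobin, and in both siFXR1-LNA libraries most lie near the left edge.

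Mast cell markers that the rule did not use gave the same picture. In siCont the 10 markers summed to 714 and 526 CPM (UMIs of a gene scaled to a common total) in the mast cell class against 583 and 226 CPM in all other retained barcodes of the same libraries. In siFXR1-LNA they summed to 5748 and 2480 CPM against 134 and 134 CPM. All 10 markers were detected in the class in each of the 4 libraries, and B cell markers summed to at most 54.2 CPM in it. Dendritic cell markers reached 8829 CPM and neutrophil markers 7675 CPM in siCont replicate 2. Neutrophil markers reached 9583 CPM in siFXR1-LNA replicate 2, so the class held RNA of other cell types in these libraries. Cd74, 1 of the dendritic cell markers but not limited to that cell type, was at 6301 CPM in siCont replicate 2. In siCont replicate 1 it was at 3204 CPM. Whether the RNA of other cell types came from the same cell was not tested.

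Protease RNA was spread over nearly all barcodes of the siCont libraries. At least 1 rule UMI was found in 95.4% and 82.0% of the retained barcodes of siCont, and in 8.26% and 23.1% of those of siFXR1-LNA. At least 3 were found in 65.3% and 34.9% against 0.134% and 0.778%. The mean was 3.80 and 2.38 rule UMIs per retained barcode in siCont and 0.0975 and 0.302 in siFXR1-LNA, at median depths of 1970 and 3274 UMIs in siCont and 1349 and 2658 in siFXR1-LNA. The groups did not overlap in any of these 3 values on rule genes, whereas they overlapped in depth.

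**Figure D2:**
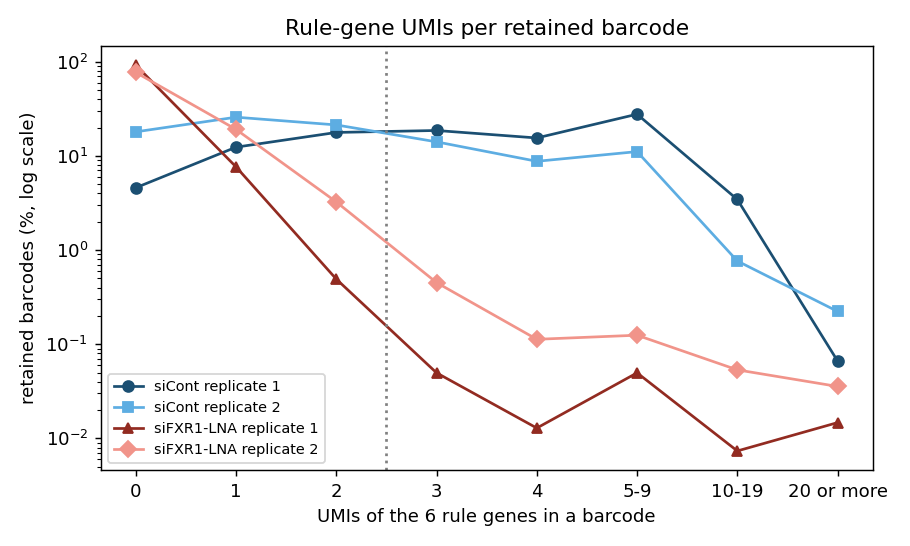
Percent of retained barcodes (y, log scale) by the number of UMIs of the 6 rule genes they hold (x), 1 line per library; the dotted line is the limit of the rule. The siCont curves run smoothly across the limit, with 18.6% and 14.1% of barcodes at exactly 3 UMIs, whereas the siFXR1-LNA curves start at 91.7% and 76.9% at 0 UMIs and fall below 1% at 3.

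The limit of 3 UMIs cut through one continuous distribution in siCont. Just outside it, 2339 and 864 barcodes without the 4 excluded genes held 2 rule UMIs, and just inside it 2390 and 623 held 3. Retained barcodes with 2 and 3 UMIs in siCont replicate 1 had medians of 1749 and 1727 UMIs and of 58.3% and 58.4% hemoglobin. In siFXR1-LNA 154 and 168 barcodes lay just outside and 14 and 29 just inside. The condition on C1qa, C1qb, Cd79a and Cd3e removed 16363 and 2863 siCont barcodes that held 3 or more rule UMIs, and 21 and 81 in siFXR1-LNA.

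Cell types that should lack these proteases carried them at similar levels. Retained barcodes were sorted by markers of 5 other cell types or by hemoglobin of at least 50%. In siCont replicate 1 the share with 3 or more rule UMIs was 60.2% of 1888 barcodes with B cell markers (95% exact binomial interval 57.9 to 62.4, counting error only), 62.8% of 696 with T cell markers, 56.2% with macrophage markers and 64.1% with hemoglobin of at least 50%. It was highest, 77.5%, among 3879 barcodes with epithelial and mesothelial markers. In siCont replicate 2 the same shares were 27.1%, 28.5%, 23.7%, 48.2% and 44.0%. In siFXR1-LNA replicate 1 none of 160 barcodes with B cell markers held 3 rule UMIs, and in siFXR1-LNA replicate 2 there was 1 among 303 (0.330%). By this measure the 65.3% and 34.9% of all retained siCont barcodes lay near the level of B and T cells.

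The groups did not overlap after thinning either. Thinned to 1000 UMIs, barcodes with B cell markers held a mean of 1.31 and 0.679 rule UMIs in siCont (1872 of 1888 and 1665 of 1687 deep enough) and 0.0189 and 0.101 in siFXR1-LNA (159 of 160 and 297 of 303). The set with hemoglobin of at least 50% held 1.83 and 0.964 against 0.0232 and 0.0899. Barcodes with macrophage markers, the deepest set, held the least in the siCont libraries, 0.633 and 0.217.

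**Figure D3:**
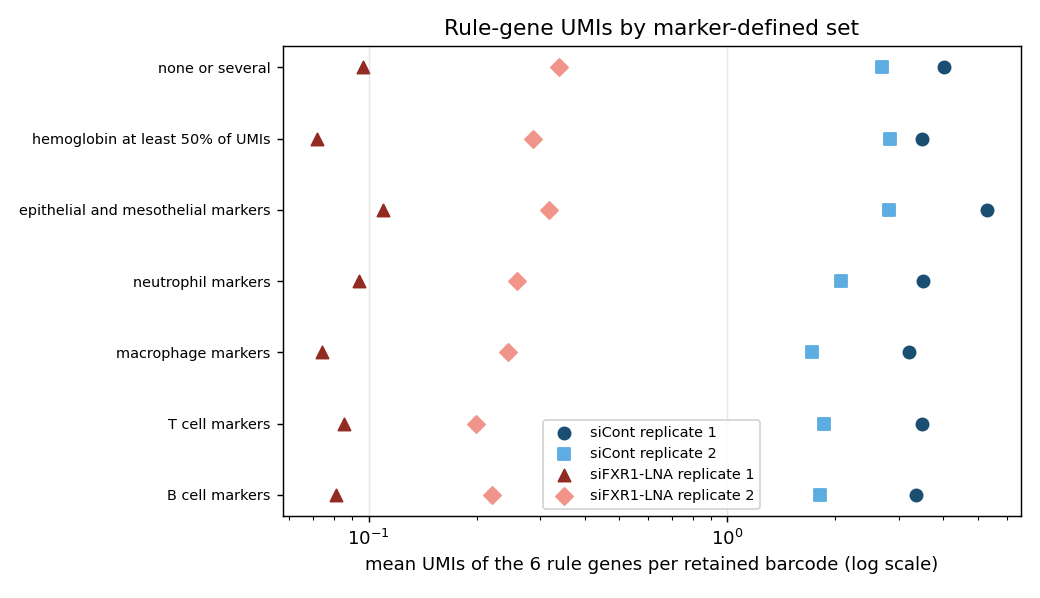
Mean number of rule-gene UMIs per retained barcode (x, log scale) in 7 sets sorted by markers or hemoglobin (y), 1 symbol per library. Within a library the sets lie close together (3.21 to 5.29 in siCont replicate 1), and every set is higher in both siCont libraries than in both siFXR1-LNA libraries.

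In the siCont libraries the ratio of the proteases varied little between the sets. Mcpt4 was 40.6% of Mcpt4 plus Cma1 UMIs in barcodes with B cell markers of siCont replicate 1, 41.8% with T cell markers, 41.2% with macrophage markers, 40.0% with neutrophil markers and 40.9% with hemoglobin of at least 50%. In siCont replicate 2 these shares ran from 31.0% with neutrophil markers to 34.1% with epithelial and mesothelial markers. Tpsb2, a tryptase that the rule did not use, was 38.5% to 41.5% of Tpsb2 plus Cma1 over the sets of siCont replicate 1 and 33.5% to 35.6% over those of siCont replicate 2. The sets of the siFXR1-LNA libraries held fewer UMIs, and the Mcpt4 share ran from 0% (0 of 6 UMIs, B cell markers) to 33.3% (1 of 3, T cell markers) in replicate 1 and from 16.3% (B cell markers) to 31.4% (T cell markers) in replicate 2. Between libraries the Mcpt4 share differed: over all retained barcodes it was 40.8% and 32.5% in siCont and 15.1% and 22.8% in siFXR1-LNA, without overlap. The Cpa3 share of Cpa3 plus Cma1 was 35.2% and 32.0% in siCont and 34.0% and 36.7% in siFXR1-LNA, so the groups overlapped. These ratios were looked at after the values were seen and carry no test. Mcpt1, Mcpt2 and Mcpt4 are close relatives, and reads that fit more than 1 of them could have been left out of the counts.

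As a share of retained barcodes the mast cell class was 20.02% and 12.1% in siCont and 0.0902% and 0.285% in siFXR1-LNA, a mean of 16.1% ± 5.59 against 0.188% ± 0.138 (SD, n = 2 libraries each). Both siCont libraries lay above both siFXR1-LNA libraries. The exact two-sided permutation test gave p = 0.333, the smallest p that 2 against 2 libraries allow, so this design could not pass 0.05. Without the limit on the 4 excluded genes the difference grew from 15.9 to 49.7 percentage points, and with at least 10 rule UMIs it was 0.354. Of 113181 distinct barcode sequences among the retained ones, 6544 occurred in more than 1 library, as did 21 of the 8837 distinct ones among the members.

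Members whose rule genes took at least 1% of their UMIs numbered 43 and 69 in siCont and 17 and 7 in siFXR1-LNA, or 0.119%, 0.550%, 0.0313% and 0.0416% of retained barcodes. This limit was set after the values were seen, and no test is given. Their median hemoglobin was 3.61%, 4.03%, 4.96% and 0.530% of UMIs, and their median depth 633, 619, 611 and 1060 UMIs. In siCont the other class members had medians of 57.1% and 64.0% hemoglobin, and in siFXR1-LNA of 4.64% and 0.827%, so the hemoglobin share set them apart in siCont and not in siFXR1-LNA. A limit on a share of total UMIs favours shallow barcodes. Taken without regard to the 4 excluded genes, 145, 162, 20 and 12 retained barcodes passed the same limit.

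Genes outside the rule were at higher levels where the share of rule genes was higher in both siCont libraries. Tpsb2 went from 338 and 159 CPM in siCont class members below 0.2% to 2045 and 6777 CPM in those at 1% or more. Fcer1a, the IgE-binding chain of FcεRI, went from 33.0 and 20.7 CPM to 828 and 1825. Kit went from 47.1 and 31.9 CPM to 633 and 505. In siCont replicate 1 a single barcode of 10476 UMIs held 25 of the 34 Fcer1a, 15 of the 26 Kit and 61 of the 88 Srgn UMIs at 1% or more, and without it, a choice made after seeing the data, the levels were 294 CPM for Fcer1a, 359 for Kit and 882 for Srgn. Hdc, which makes histamine, went from 34.4 and 40.2 CPM to 195 and 1068. The siCont members below 0.2% and at 1% or more also differed in hemoglobin and depth. Median hemoglobin was 62.0% and 70.6% of UMIs below 0.2%, against 3.61% and 4.03% at 1% or more. Median depth was 2380.5 and 3794 UMIs against 633 and 619. Hemoglobin UMIs are part of the total that CPM divides by. How much of each step follows from hemoglobin or depth was not tested.

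The 2 siFXR1-LNA libraries held few barcodes at each step. At 1% or more, Tpsb2 reached 10619 and 6560 CPM over 16 and 7 class members, Hdc 1492 and 2478 CPM, and Il1rl1, the receptor for IL-33, 1316 and 1604 CPM. Fcer1a was found in 12 of 17 and 4 of 7 of these members in siFXR1-LNA and in 5 of 43 and 26 of 69 in siCont. Mcpt4 summed to 3686 and 2624 CPM against 2775 and 6951 in siCont, with overlap.

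**Figure D4:**
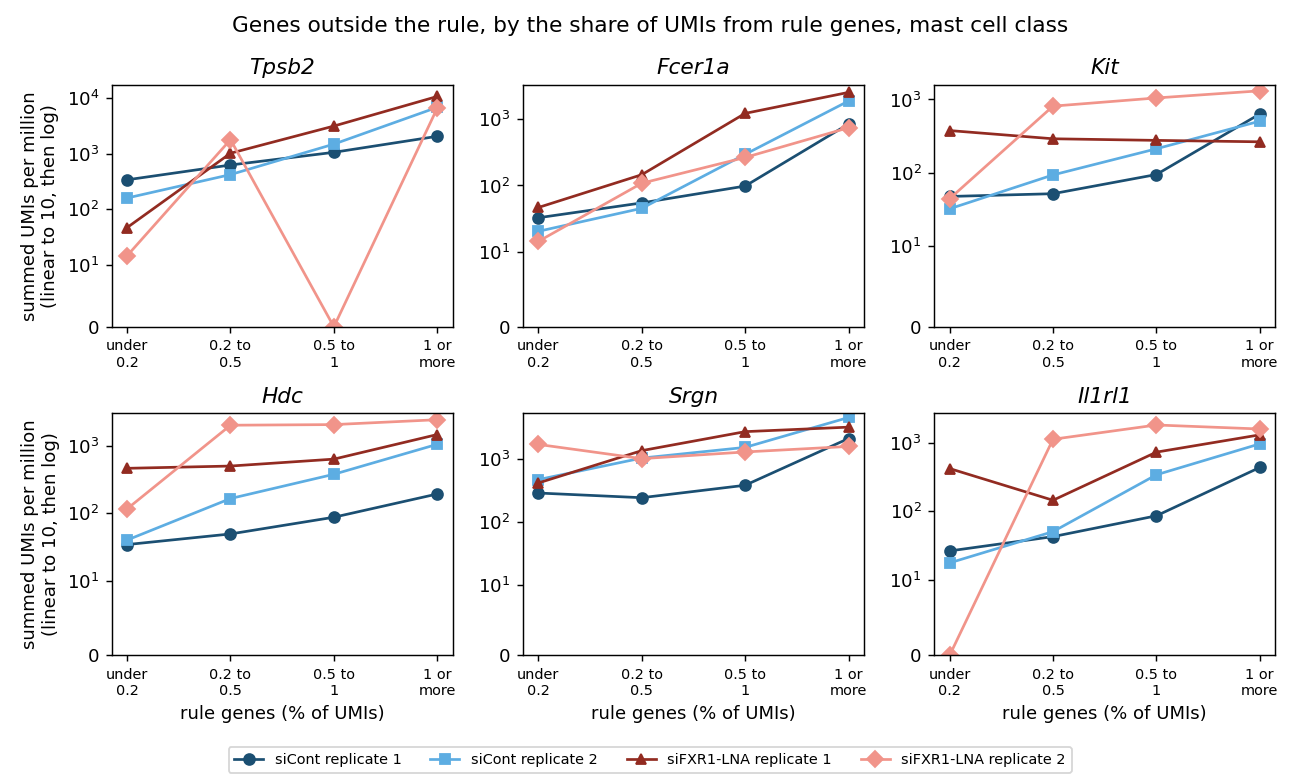
Level of 6 genes outside the rule (y, CPM summed over the barcodes of a bin, linear to 10 and then log) by the percent of UMIs from rule genes (x, 4 bins), mast cell class, 1 line per library. In siCont all 6 end higher at 1% or more than below 0.2%, and the siFXR1-LNA bins, of 6 to 19 barcodes each, are uneven.

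Other granule and receptor genes were present in these protease-rich class members. Srgn, the serglycin core protein, was at 2142, 4621, 3247 and 1604 CPM in siCont replicates 1 and 2 and siFXR1-LNA replicates 1 and 2. Fcer1g, the signaling chain of FcεRI, was at 779, 1709, 1667 and 1312 CPM, and Ms4a2, its beta chain, at 97.4, 175, 527 and 583 CPM. Tph1, which starts serotonin synthesis, was at 146, 1146, 878 and 583 CPM. Of 19 cytokine and chemokine genes, Il6, Il13, Il5, Il3 and Csf2 had no UMI in any of the 4 libraries, whereas Il4 had 3, 4, 1 and 0. With 6860 to 51501 UMIs per library in these members, a gene with no UMI was not detected, and a low level could have been missed. Eosinophil markers had 0, 2, 0 and 0 UMIs.

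Single barcodes showed the range of protease patterns. The member with the largest rule share, in siCont replicate 2, held 223 Cma1, 66 Mcpt4, 51 Cpa3 and 66 Tpsb2 UMIs among 2124, with 34 Fcer1a and 48 Srgn. The richest of siFXR1-LNA replicate 1 held 45 Cma1, 16 Mcpt4, 6 Cpa3 and 32 Tpsb2 among 912, and that of siFXR1-LNA replicate 2 held 14 Cma1, 11 Mcpt4, 13 Cpa3 and 11 Tpsb2 among 1060. All 3 carried the connective tissue chymase Mcpt4 beside Cma1, whereas the member of siCont replicate 1 with the most rule UMIs held 113 Cpa3 and 36 Cma1 but no Mcpt4. The member of that library with the largest rule share did hold it, with 23 Cma1, 12 Cpa3 and 5 Mcpt4 among 655 UMIs.

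Mcpt1 had almost no RNA despite a start region so like that of Mcpt4. It had 0 UMIs in siCont replicate 1 and in siFXR1-LNA replicate 1, 337 in siCont replicate 2 and 11 in siFXR1-LNA replicate 2, beside 42199, 538, 7220 and 773 of Mcpt4. Of the 337, a single barcode held 331, with 47 Mcpt4, 22 Tpsb2, 13 Cpa3 and 7 Kit. It was not a member because it also held 1 C1qa UMI. All 11 of siFXR1-LNA replicate 2 lay in 1 member, which also held all 14 UMIs of Mcpt2, the neighbouring mucosal protease, found in the class of that library.

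The basophil class held 2, 1, 3 and 2 barcodes. Its share of retained barcodes was 0.00675% ± 0.00172 in siCont and 0.0087% ± 0.00449 in siFXR1-LNA (exact two-sided permutation p = 1). As a share of the members it was 0.0467% ± 0.0269 against 4.88% ± 1.25 (SD, n = 2 libraries each, exact two-sided permutation p = 0.333), a ratio set mostly by the number in the mast cell class. With fewer than 10 barcodes in every library no test across genes was made.

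Most of these 8 barcodes entered through Cd200r3 and not through Mcpt8. Only 3 held any Mcpt8, and the same 3 held Prss34, another basophil protease. The clearest, in siFXR1-LNA replicate 1, held 35 Mcpt8, 110 Prss34, 13 Cpa3 and 11 Ctsg among 4149 UMIs, with no Kit and no Tpsb2. A second one of that library held 4 Mcpt8 and 16 Prss34, and that of siCont replicate 2 held 4 Mcpt8, 11 Cd200r3, 6 Prss34, 5 Fcer1a and 7 Ms4a2. The other 5 held 2 to 8 Cd200r3 with neither Mcpt8 nor Prss34. Of these, the barcodes of 617 and 1119 UMIs held 2 Kit UMIs each, and both of siFXR1-LNA replicate 2 held 1 each. Mrgprb1, another mast cell marker, had 1, 1 and 3 UMIs in the barcodes of 617, 805 and 2514 UMIs. The basophil class is therefore also named by the rule and not as a cell type.

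Some barcodes with much Mcpt8 fell in the mast cell class. One of siCont replicate 1 held 113 Cpa3, 56 Mcpt8, 36 Cma1, 25 Fcer1a and 15 Kit among 10476 UMIs, without Mcpt4. It also held 80 Gzmb, 14 Top2a and 14 Mki67, the last 2 being genes of cycling cells. One of siCont replicate 2 held 61 Cma1, 30 Cpa3, 17 Mcpt8 and 1 Mcpt4. Of the Top2a UMIs in the protease-rich members of siCont replicate 1, 21 in all, 14 lay in that 1 barcode.

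The 2 classes were set side by side as a description that follows from the rule. The sums differ in their make-up, since siCont gave 99.3% of the UMIs of the mast cell class and 41.2% of those of the basophil class, so class and treatment group cannot be told apart in these folds. The summed basophil class was 157-fold higher in Cd200r3 (36 UMIs) and 53.1-fold in Pde4d, a cAMP phosphodiesterase (45 UMIs). It was 20.01-fold higher in Ikzf2, a zinc finger factor (10 UMIs), and 5.86-fold in Zeb2, a transcription factor (13 UMIs). The mast cell class was 12.7-fold higher in Alas2, the first enzyme of heme synthesis in red cells, and 8.65-fold in Cd74, the invariant chain. It was 7.67-fold higher in S100a9 and at least 5.80-fold in S100a8, a pair of neutrophil genes, and 4.57-fold in Cma1. In the basophil class these folds rested on 3 UMIs of Alas2, 9 of Cd74, 3 of S100a9, 0 of S100a8 and 4 of Cma1. The S100a8 value is a lower bound against 3 counts over the basophil class.

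Fxr1, the target of the siRNA, was not lower over all retained barcodes of the libraries labelled siFXR1-LNA. It stood at 55.9 and 47.4 CPM in siCont and 104 and 71.9 CPM in siFXR1-LNA. Hemoglobin took 30.4% and 22.8% of these UMIs in siCont and 10.2% in both siFXR1-LNA libraries, which lowers the siCont values more. The gap between the groups is therefore partly one of the total. How far they differ apart from hemoglobin was not tested. In the mast cell class Fxr1 was at 49.7 and 31.5 CPM (764 and 165 UMIs) against 174 and 30.7 CPM, the latter from 10 and 3 UMIs. Its log2 fold change in the class was 0.22 (SE 0.67, adjusted p = 0.966), and the change in the class did not pass the test of a difference from that in other barcodes (log2 difference -0.55, SE 0.48, adjusted p = 0.826). In the basophil class it had 0, 0, 0 and 2 UMIs. The study reports lower Fxr1 in epithelial cells of the siFXR1-LNA group, a set in which Fxr1 was not compared here.

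The question put to the mast cell class was which genes differ between siFXR1-LNA and siCont. UMIs of the class were summed per library, to 15374387 and 5238186 in siCont but only 57409 and 97565 in siFXR1-LNA, and compared with the edgeR quasi-likelihood test. Of 10423 genes tested, 6 passed an adjusted p of 0.05 (0.0576%), all higher in siFXR1-LNA, none was lower, and 912 had an unadjusted p under 0.05. DESeq2 called 69 higher and 14 lower. Without siCont replicate 1 the edgeR counts were 0 and 0, without siCont replicate 2 they were 54 and 38, without siFXR1-LNA replicate 1 they were 4 and 2, and without siFXR1-LNA replicate 2 they were 2 and 6. The median log2 fold change of all genes was -0.31 and became 0.60 when libraries were scaled by total UMIs alone. Fewer cells of a type and less RNA per cell cannot be told apart in such sums, and the share of hemoglobin moved with the group.

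Saa3, an acute-phase protein of inflamed tissue, had the clearest call. It stood at 143 and 131 CPM in siCont and 9772 and 9050 CPM in siFXR1-LNA (log2 fold change 5.18, SE 0.45, adjusted p = 0.0045). Other retained barcodes also went from 450 and 594 CPM to 19156 and 29389 CPM, and 54265 of 54282 other barcodes of siFXR1-LNA replicate 1 held at least 1 Saa3 UMI. The change in the class minus that in other barcodes was -0.36 (SE 0.25, adjusted p = 0.695, edgeR interaction test).

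The other 5 genes rested on few UMIs. Slc24a3, a sodium-calcium-potassium exchanger, had 65 and 46 UMIs in siCont (4.23 and 8.78 CPM) and 38 and 37 in siFXR1-LNA (662 and 379 CPM), a log2 fold change of 5.37 (SE 0.58, adjusted p = 0.015). Galnt18, which starts O-glycan chains, had 56, 25, 9 and 24 UMIs and a change of 4.73 (SE 0.58, adjusted p = 0.0304). Pde1c, a cyclic nucleotide phosphodiesterase, had 75, 29, 9 and 17 and a change of 4.09 (SE 0.55, adjusted p = 0.0417). Sorcs3, a sorting receptor, had 4, 3, 3 and 8 UMIs, and Gm10354 had 2, 0, 12 and 2, of which 11 lay in the protease-rich members of siFXR1-LNA replicate 1. Each of the 6 was higher in both siFXR1-LNA libraries than in both siCont libraries, and so were 36.8% of all genes tested. Without siCont replicate 1 the calls of Saa3, Slc24a3, Galnt18 and Pde1c were lost (adjusted p from 0.193 to 0.203 over 2153 genes). Without siFXR1-LNA replicate 1 those of Slc24a3, Sorcs3 and Pde1c were lost, without siCont replicate 2 that of Gm10354, and without siFXR1-LNA replicate 2 those of Galnt18 and Pde1c.

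Slc24a3, Galnt18 and Pde1c were also at higher levels in the protease-rich members of siCont, whereas Sorcs3 and Gm10354 had no UMI there. Slc24a3 was at 170 and 136 CPM in those members and at 3.78 and 7.52 CPM in the rest of the siCont class, Galnt18 at 97.4 and 117 against 3.39 and 3.66 CPM, and Pde1c at 146 and 136 against 4.50 and 4.24 CPM. Protease-rich members made up 43 of 7233 and 69 of 1520 of the class in siCont but 16 of 49 and 7 of 48 in siFXR1-LNA. Among class members under 1%, Slc24a3 was at 695 and 331 CPM in siFXR1-LNA, Galnt18 at 196 and 232 CPM and Pde1c at 196 and 154 CPM. These values were also above those of siCont members under 1%. The members under 1% were not alike, with median hemoglobin of 57.1% and 64.0% in siCont and 4.64% and 0.827% in siFXR1-LNA. Whether the make-up of the class accounts for the differences was not tested. In siFXR1-LNA replicate 1 the protease-rich members held no Galnt18 or Pde1c UMI.

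**Figure D5:**
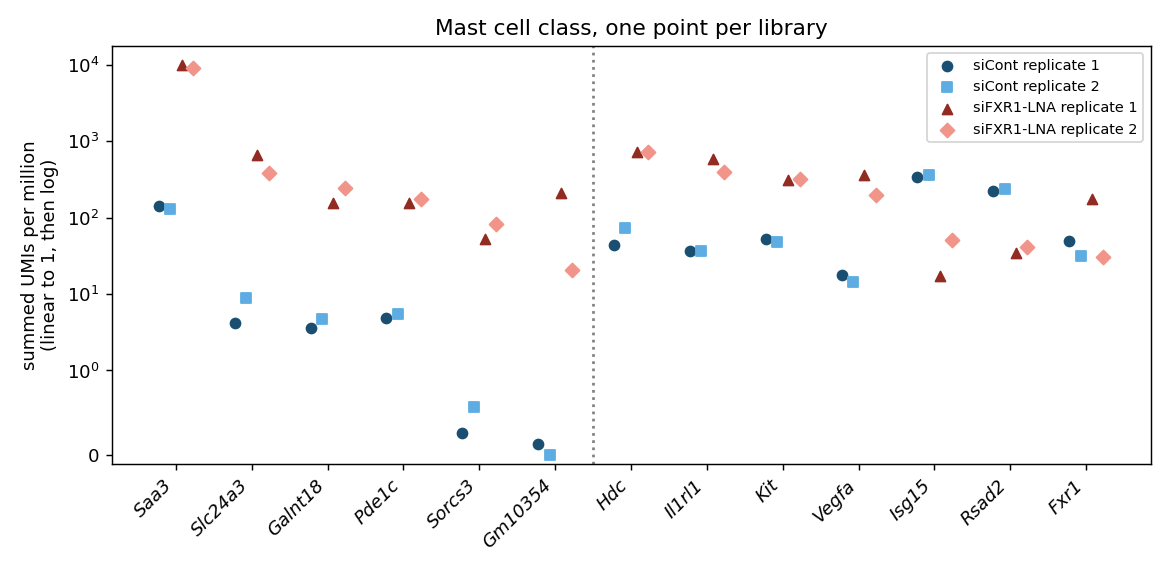
Level of 13 genes in the mast cell class (y, CPM of the summed class, linear to 1 and then log), 1 point per library; the 6 genes left of the dotted line passed the test. For those 6 both siFXR1-LNA points lie above both siCont points; of the genes to the right none passed, Isg15 and Rsad2 lie lower in siFXR1-LNA, and the groups overlap for Fxr1.

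None of the 15 gene lists had a member past the threshold in either direction. Tpsb2 (log2 fold change 1.28, adjusted p = 0.559) passed with scaling by total UMIs alone (2.28, adjusted p = 0.0314) and with the replicate number as a block (1.14, adjusted p = 0.0261). Of 10 granule protease genes outside the rule the median log2 fold change was 1.46, of 7 genes of the granule matrix and amines 1.21, and of 15 genes of the IgE receptor and its signaling 0.38, beside -0.31 over all genes. Hdc was at 43.1 and 72.2 CPM in siCont and 714 and 728 in siFXR1-LNA (log2 fold change 2.72, SE 0.46, adjusted p = 0.0801). Il1rl1 was at 36.3 and 37.0 against 592 and 400 CPM (adjusted p = 0.0567), and Kit at 52.0 and 47.3 against 314 and 318 CPM (adjusted p = 0.224). Mitf, a mast cell transcription factor, was at 13.1 and 23.3 against 279 and 256 CPM (adjusted p = 0.0814). The groups did not overlap in these 4 genes, but neither did they in 36.8% of all genes tested, which were higher in siFXR1-LNA, and in another 13.2%, which were lower.

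The 9 interferon-stimulated genes had a median of -3.60 and no positive value. Isg15 was at 343 and 360 CPM in siCont and 17.4 and 51.2 in siFXR1-LNA (1 and 5 UMIs, adjusted p = 0.0504), and Rsad2 at 219 and 239 against 34.8 and 41.0 CPM (adjusted p = 0.0567). In other retained barcodes these genes were lower too, Isg15 at 285 and 327 against 57.2 and 60.0 CPM. Rsad2 was at 146 and 131 against 41.6 and 49.7 CPM there. The 6 proliferation genes had a median of -2.38, with Top2a at 75.4 and 24.1 CPM in siCont and 0 UMIs in both siFXR1-LNA libraries, whose class sums of 57409 and 97565 UMIs could hold only a few at the siCont level. Of 10 hypoxia and glycolysis genes all had positive values, with a median of 1.41, among them Bnip3 at 20.6 and 28.1 against 314 and 297 CPM (adjusted p = 0.0801). Vegfa, an angiogenic factor in the cytokine list, was at 17.6 and 14.5 against 366 and 195 CPM (adjusted p = 0.0567). Other retained barcodes moved the same way, with Top2a at 72.2 and 36.2 against 14.5 and 9.74 CPM. Bnip3 was at 19.8 and 29.1 against 349 and 348 CPM in them.

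In the remaining lists the median log2 fold change was 1.72 over 10 cytokine and chemokine genes, 0.84 over 12 transcription factors, 0.90 over 10 immediate early genes, 0.92 over 7 heat shock genes, 0.14 over 18 receptors and 0.22 over the 3 genes of the fragile X family. It was -0.23 over 10 genes of KIT and survival, -0.30 over 8 eicosanoid enzymes and -0.20 over 10 exocytosis genes, of which Rab27b, a granule transport GTPase, had the lowest adjusted p (0.0586).

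Whether the change in the mast cell class differed from that in all other retained barcodes was tested in 1 edgeR model over 8 sums, with the library as a block. Of 16450 genes 352 passed (2.14%), 150 with a higher (0.912%) and 202 with a lower (1.23%) change in the class. With scaling by total UMIs alone the counts were 315 and 10, and with DESeq2 they were 189 and 16, so the split between both directions depended on the scaling and tool. Without siFXR1-LNA replicate 1 the counts were 0 and 0, without siFXR1-LNA replicate 2 they were 14 and 17, without siCont replicate 1 they were 56 and 92, and without siCont replicate 2 they were 76 and 19. The class was chosen on RNA of granule proteases, so genes that go with them are not independent of the choice. Rule genes were not taken out of this test or of its counts. Of the granule protease list 9 genes passed with the rule genes and 5 without them. Below, the 6 rule genes are not named, since the rule set their counts.

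Rule genes made up 0.217% and 0.153% of class UMIs in siCont, against 0.126% and 0.0441% in other barcodes. In siFXR1-LNA they made up 0.714% and 0.287% against 0.00436% and 0.0069%. The rule thus favoured a higher change in the class for genes that go with the proteases. For such genes the p-values below are no independent support. Mast cell genes outside the rule stood on this higher side. Of 10 granule proteases 5 passed, all higher: Tpsb2, Tpsab1, Tpsg1, Cma2 and Mcpt2. Tpsb2 was at 490 and 281 CPM in the siCont class and 2961 and 810 in the siFXR1-LNA class, while in other barcodes it was at 406 and 128 against 20.9 and 26.7 CPM (log2 difference 4.45, SE 0.29, adjusted p = 2.9e-48). Mcpt2 rested on 1 barcode of siFXR1-LNA replicate 2. Of 7 genes of granule matrix and amines 3 passed, Hdc, Tph1 and Slc18a2, the vesicular monoamine transporter, and Srgn did not (log2 difference 0.09, SE 0.27, adjusted p = 0.952).

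Receptor genes showed the same direction, under the same limit. Of 15 genes of the IgE receptor list 4 passed, all higher. Fcer1a was at 46.7 and 46.6 CPM in the siCont class and 766 and 92.2 in the siFXR1-LNA class, and in other barcodes at 35.5 and 17.3 against 5.69 and 4.26 CPM (log2 difference 4.28, SE 0.38, adjusted p = 5.9e-26). Of 22 receptors 6 passed, all higher, among them Il1rl1 (4.83, SE 0.35) and Mrgprb2, the receptor for basic secretagogues (4.73, SE 0.70). Kit had a log2 difference of 1.27 (SE 0.35, adjusted p = 0.0196). The Kit call was lost with DESeq2 (adjusted p = 0.521), with at least 500 genes per barcode (0.0716), without members above the 95th UMI percentile (0.361) and without hemoglobin genes (0.0651), and the Kit difference was 0.73 without siCont replicate 1 and 0.14 without siFXR1-LNA replicate 2. The calls of Tpsb2, Fcer1a and Hdc were lost without siFXR1-LNA replicate 1 (log2 difference 3.39, 2.72 and 1.80), and that of Hdc also without siFXR1-LNA replicate 2 (2.45). Of the transcription factors 12 were tested, and Mitf and Gata2 passed.

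Of 10 hypoxia and glycolysis genes 3 passed, all lower: Ndrg1, Egln3 and Bnip3. The median log2 difference was -0.61 over the 10 genes and -0.87 over all genes tested, so the list as a whole did not lie below the rest. Vegfa, in the cytokine list, also had a negative log2 difference (-1.30, SE 0.35, adjusted p = 0.0158, edgeR interaction test). It was at 17.6 and 14.5 CPM in the siCont class and 366 and 195 in the siFXR1-LNA class. In other barcodes Vegfa was at 15.6 and 12.8 CPM in siCont and 427 and 210 in siFXR1-LNA. Part of such differences, also that of Bnip3 (-1.12, SE 0.34), is shared with all genes, whose median was -0.87. None of 11 immediate early genes, 6 proliferation genes and 3 genes of the fragile X family passed.

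The other lists had 1 or 2 members each that passed. Bcl2l1, a survival factor, was lower (-2.29, SE 0.59) among 10 genes of KIT and survival, which also hold Kit; it had 1 and 4 UMIs in the siFXR1-LNA class. Among 9 eicosanoid enzymes Hpgds (3.67, SE 0.66) and Alox5 (1.89, SE 0.50) were higher, the first a prostaglandin D2 synthase and the other the 5-lipoxygenase. Ccl7, a monocyte chemokine, was higher among 13 cytokine and chemokine genes (2.75, SE 0.61), with 12 UMIs in siFXR1-LNA replicate 1 (209 CPM) but 1 in replicate 2 (10.25 CPM) beside 9.82 and 9.74 CPM in siCont. Rab27b was higher among 10 exocytosis genes (4.56, SE 0.45). Hspb1 was lower among 7 heat shock genes (-1.10, SE 0.30), close to the median of -0.87 over all genes tested. It was at 170 and 55.4 CPM in the siCont class and 941 and 420 in the siFXR1-LNA class. In other barcodes Hspb1 was at 135 and 34.7 against 768 and 316 CPM, a similar rise. Rsad2 was lower among 9 interferon-stimulated genes (-1.89, SE 0.56).

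The genes with the largest differences had few UMIs in the class. Beside Mcpt2, Sorcs3, Gm10354 and Galnt18, the largest on the higher side were Gm47599, Gm33906, A230098N10Rik and Gm11697, with at most 19 UMIs in the class of a siFXR1-LNA library. On the lower side Olfm4, Ppbp, Arg2, Lrrn4, Col4a2, Gcnt2, Msrb3, Epb41l5, Lratd2 and Chd8 had 0 UMIs in the class of both siFXR1-LNA libraries, so no fold is given.

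Thinned to 1000 UMIs, the class held a mean of 1.09 and 1.04 Cma1 UMIs per barcode in siCont (6862 and 1303 barcodes) and 3.05 and 1.40 in siFXR1-LNA (21 and 30). Cpa3 was at 0.586 and 0.460 against 1.10 and 1.63, and Mcpt4 at 0.756 and 0.448 against 0.762 and 0.700. Without thinning Cma1 was at 2.04 and 2.77 against 5.61 and 2.5, so the groups overlapped. These are rule genes with a floor of 3 UMIs for their sum, and their levels are given as a description.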

How the data were processed

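Single-cell RNA-seq was made on ascites in 4 libraries, 2 of siCont and 2 of siFXR1-LNA. The authors deposited UMI counts per gene and barcode for each library, whole numbers that were not normalized. The submitters' processing notes name Cell Ranger 7.0.0 and the build mm10, the study's methods give a later version of Cell Ranger, and the labels give 2 versions of the 3' kit. In the study 1 of the siFXR1-LNA libraries was dropped for low yield. Which one is not stated, and both were used here. Totals were 101500063 and 88346685 UMIs in siCont and 113606837 and 78179267 in siFXR1-LNA.

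Members and gene lists were chosen with earlier results of these data known. No normalization, integration, clustering or doublet caller was applied. UMIs were summed per library and class, divided by the class total (CPM), and tested with edgeR 4.0.16 in R 4.3.3 (quasi-likelihood test after TMM scaling and filterByExpr; p adjusted by Benjamini-Hochberg over all tested genes, called under 0.05). Standard errors are the log2 fold change divided by the root of F. Shares were compared by exact permutation over libraries, with exact binomial intervals at 95% that cover counting error only. Marker-defined sets needed 3 UMIs of 1 list. The genes named are the rule genes, examples of the lists, the 10 largest rises and falls past the threshold with groups that did not overlap, the 15 highest genes and the 12 largest folds between the classes. Single barcodes were chosen after their values were seen. On simulated counts of 9953 genes for the comparison in the mast cell class, the test called 10.1% of genes changed 4-fold, 36.5% of those changed 8-fold and 4 unchanged genes. Alternatives covered gene limits, marker sum, excluded genes, hemoglobin, scaling, low-count filter, DESeq2 1.42.0, deep barcodes, the replicate block, left-out libraries and thinning. Nothing says that the libraries of a group came from separate experiments, so p-values measure only the spread between these samples.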

Additional observations from a re-analysis of the deposited data

Results flagged for a closer look

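For 5 of the 6 genes called in the mast cell class, the change from siCont to siFXR1-LNA differed between the class and all other retained barcodes by the interaction test (edgeR, library as a block). The log2 difference was 7.59 for Sorcs3 (adjusted p = 9.6e-08), 6.75 for Gm10354 (adjusted p = 3.1e-05), 6.18 for Galnt18 (adjusted p = 1.4e-20), 4.48 for Pde1c (adjusted p = 1.7e-11) and 3.72 for Slc24a3 (adjusted p = 2.7e-18). In other barcodes Slc24a3 was at 3.14 and 3.34 CPM in siCont and 8.10 and 14.2 CPM in siFXR1-LNA, and Galnt18 at 2.92 and 1.36 against 0.579 and 0.996 CPM. The 5 genes had been called for their change in the class, and the same class sums enter this test, so their number is not independent of that choice. Of all 16450 genes 2.14% passed it, and none did without siFXR1-LNA replicate 1. Sorcs3 and Gm10354 had at most 12 UMIs in the class of any library.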

How the results depend on the processing

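The lower share of the mast cell class in siFXR1-LNA kept its direction under every alternative run, between -49.7 percentage points without the limit on C1qa, C1qb, Cd79a and Cd3e and -0.299 with rule genes at 1% or more, the latter chosen after seeing the data. The basophil share turned to -9.52e-05 points with at least 10 rule UMIs, and left-out libraries gave -0.00123 to 0.00513. Genes called higher and lower in the mast cell class numbered 34 and 19 with at least 100 genes per barcode, 91 and 35 without the limit on the 4 genes, 20 and 19 without members above the 95th UMI percentile, 69 and 14 with DESeq2, 216 and 7 without TMM and 93 and 95 without the low-count filter. With at least 500 genes 3 were higher, and without hemoglobin genes 1 was lower. Left-out libraries gave 0 to 54 higher and 0 to 38 lower. With the replicate block the counts were 162 and 224. The replicate numbers are only numbers here: the labels give no shared origin, and the 2 pairs' deviations correlated at 0.254 over 10423 genes. For the difference between the class and other barcodes, the higher count became 88 with at least 500 genes and 315 without TMM, and the lower one 334 with at least 100 genes, 62 without the limit on the 4 genes, 16 with DESeq2, 10 without TMM and 321 without hemoglobin genes. Left-out libraries gave 0 to 76 and 0 to 92. The Fxr1 log2 fold change turned to -0.0319 without members above the 95th percentile, and left-out libraries gave -1.26 to 0.94. Thinned to 2000 UMIs, which left 4 barcodes of siFXR1-LNA replicate 1, the difference in mean UMIs turned to -0.176 for Cma1, -0.333 for Mcpt4, -0.14 for Cpa3 and -0.0785 for Tpsb2. Mcpt4 was at -0.297 without thinning. The causes were not tested. At least 10 rule UMIs left under 10 barcodes in a library, so no fit across genes was run. With 57409 and 97565 UMIs in the siFXR1-LNA class, a gene needed about 8-fold changes to be called in 36.5% of simulated cases.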
